A study of Mus musculus with 2 samples.

Results

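The genes described here are the integrin subunits and the adhesion ligands that they bind, a set of 33 genes out of 31053 in the count matrices. The set holds 18 α subunits, 8 β subunits and 7 ligands or counter-receptors (*Vcam1*, *Icam1*, *Icam2*, *Madcam1*, *Fn1*, *Cdh1* and *Vtn*), and its members were fixed by gene name, with earlier results of these data known. All 33 had a unique molecular identifier (UMI, the tag that marks 1 captured transcript) in kept cells of the young library, and 32 had one in the old library, where *Vtn* had none. The study asked about the fate of group 2 innate lymphoid cells (ILC2s) in the kidney during lupus nephritis and about their integrin α4β7. Its old MRL-*lpr* mice were the severely diseased group and its young ones the control or mildly diseased group, and the kidneys of each were pooled into 1 library. Mice of both groups carry the *lpr* mutation of *Fas*, so neither library is free of it, and no MRL-MpJ library was analysed here. Leukocytes were enriched on a density gradient, then with a kit for innate lymphoid cells, and live cells were sorted before 10x 3′ sequencing. With 1 library per age there was no replicate, no test between ages was possible, and all intervals given are 95% intervals for counting error only. Pooling also means that mice cannot be told apart.

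Integrins are adhesion receptors made of 1 α and 1 β chain, and the pair decides the ligand. The β7 chain pairs with α4, which binds MAdCAM-1, VCAM-1 and fibronectin, or with αE, which binds E-cadherin. The α4 chain also pairs with β1, and that heterodimer binds VCAM-1 and fibronectin. The β2 chain pairs with αL, αM, αX or αD on leukocytes and binds ICAMs, whereas β1 pairs with many α chains that bind collagens, laminins and fibronectin, and αv pairs with several β chains that bind matrix proteins and latent TGF-β. In the kidney, VCAM-1 and ICAM-1 are known on inflamed endothelium and tubular epithelium.

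After filtering, 11429 of 15076 barcodes were kept in the young library and 10232 of 12622 in the old, with a median of 7881 and 6933 UMIs per cell. Cells were placed in classes from lists of marker genes that hold no member of the set, which left 6.49% of young and 5.37% of old cells in no class. The largest classes were proximal tubule (PT)-like cells, with 7147 young and 3937 old cells, T-like cells with 603 and 4082, and ILC2-like cells with 1398 and 318. The macrophage or monocyte-like class had 256 and 409 cells, the B-like 360 and 166, and the NK or ILC1-like 176 and 221. Some classes were thin or differed in makeup: endothelial-like cells numbered 285 in the young but 18 in the old library, and other epithelial-like cells (77 and 204) were led by urothelial genes such as *Psca* and *Upk3a* in the young and by distal tubule genes such as *Umod* and *Slc12a3* in the old. The unit of level is CPM, which is what a gene would count in 1000000 UMIs of a class in 1 library. Levels are compared between classes and libraries for 1 gene at a time, since 3′ counts of different genes are not on 1 scale. The methods describe female mice, but 50.8% of young and 40.6% of old kept cells had Y-linked UMIs and no *Xist* UMI, so each library held cells with male-linked transcripts. The old over young ratios were therefore also computed within Y-linked cells and within *Xist* cells. The libraries shared 26 barcodes.

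Most leukocyte subunits had UMIs in PT-like cells too, which should lack them, and that level was taken as the background. Whether it came from free RNA or from doublets, which were kept, was not tested. For *Itga4*, 2.67% of young and 5.18% of old PT-like cells had a UMI, at median depths of 13568 and 15105 UMIs, against 68.7% and 69.8% of ILC2-like cells at the lower median depths of 5050.5 and 5378. For *Itgb7* the shares were 2.29% and 3.4% in PT-like cells and 65.2% and 73.6% in ILC2-like cells. The ILC2 marker list had all of its 12 markers detected in ILC2-like cells of both libraries, with a summed level of 6377 CPM young and 8293 CPM old. Both integrin genes stood far above background in ILC2-like cells of either age. Ligands of the epithelium were read against lymphocytes in the same way: *Cdh1*, which encodes E-cadherin, was near 0 in ILC2-like cells (0.667 CPM young and 0.594 old).

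**Figure D1:**
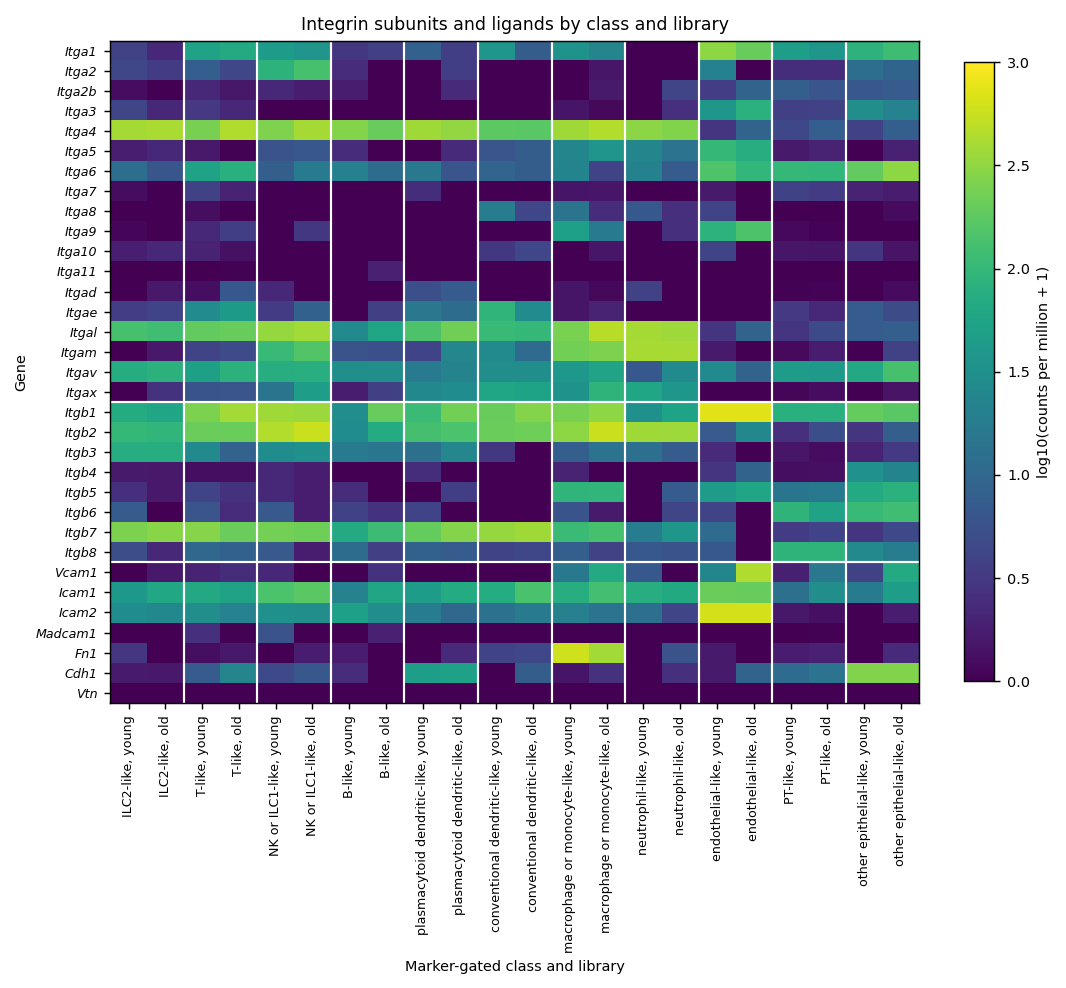
Level of each of the 33 genes (rows: α subunits, β subunits, then ligands, parted by white lines) in 11 marker-gated classes of the young and old library (columns), as log10(CPM + 1). *Itga4*, *Itgal*, *Itgb2* and *Itgb7* filled the leukocyte columns, *Icam2* and *Itgb1* the endothelial-like columns, *Cdh1* the other epithelial-like columns and *Fn1* the macrophage or monocyte-like columns.

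Between the ages, a member was counted in a class where it had at least 50 UMIs summed over both libraries, and was called past the fold where its CPM differed at least 2-fold. A weak gene can reach 50 UMIs through the library in which it is high, so these counts describe the members that could be counted and not all 33. In ILC2-like cells 10 members were counted, none was at least 2-fold higher in the old library (1.94% of all 9079 genes counted were) and 1 was lower (4.13% of all genes). In T-like cells 21 were counted, with 3 higher (6.34% of all genes) and 3 lower (5.24%). In NK or ILC1-like cells 1 of 13 was higher (1.26%) and none was lower (2.48%). B-like cells had 4 of 8 higher (3.09%) and none lower (4.78%), the largest share of counted members past the fold in any of these classes. Within *Xist* cells alone, 1 member was past the fold in B-like cells. *Itgal*, *Itgb2* and *Icam1* had fewer than 50 UMIs there and were not counted, at log2 ratios of 0.69, 0.69 and 1.09. In macrophage or monocyte-like cells 2 of 18 were higher (4.26%) and 2 were lower (3.59%). In PT-like cells 5 of 26 were higher (4.95%) and 1 was lower (3.31%). In other epithelial-like cells 3 of 12 were higher (4.46%) and none was lower (3.09%). In endothelial-like cells 2 of 10 were higher (3.85%) and none was lower (10.7%). The median log2 ratio of the counted members was 0.97 in B-like cells, beside -0.12 over all genes, and 0.32 in macrophage or monocyte-like cells, beside -0.02. In ILC2-like cells it was -0.04, beside -0.05 over all genes, and in T-like cells 0.06, beside 0.02.

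**Figure D2:**
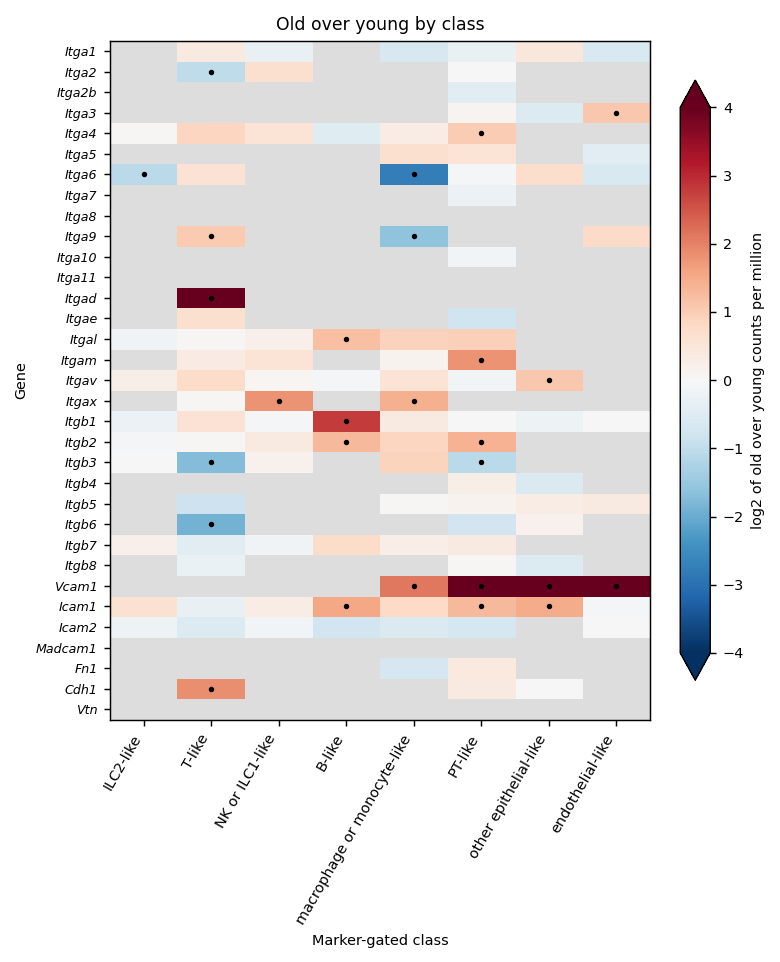
Old over young ratio (log2 of CPM) of each gene in 8 classes, red where higher in the old library, blue where lower, with a dot where the ratio was at least 2-fold and grey where fewer than 50 UMIs were counted; colours stop at 4 on either side. *Vcam1* was past the fold in all 4 classes in which it was counted, whereas most subunits in ILC2-like cells lay close to 0.

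The α4 and β7 chains, the subject of the study, had nearly the same transcript levels in ILC2-like cells of both ages. The study reported that fewer kidney ILC2s expressed integrin α4β7 as disease progressed in MRL-*lpr* mice, by flow cytometry. That measures protein, and the values here are RNA and do not measure it. *Itga4* was at 399 CPM (384 to 413) in the young library and 411 (381 to 443) in the old, a log2 ratio of 0.05 (-0.08 to 0.17). *Itgb7* was at 255 CPM (244 to 267) in the young library and 295 (269 to 322) in the old, a log2 ratio of 0.21 (0.06 to 0.35). The *Itga4* interval included 0, and that of *Itgb7* did not but lay far inside 2-fold. In T-like cells the same genes differed in opposite directions. *Itga4* was at 243 CPM (226 to 260.4) in the young library and 442 (433 to 450.5) in the old (log2 0.86, interval 0.76 to 0.97). *Itgb7* was at 281 CPM (263 to 300.0) in the young library and 207 (202 to 213) in the old (log2 -0.44, interval -0.54 to -0.34). The higher *Itga4* level of old T-like cells was largest in the subset with *Cd4* and no *Cd8* UMI, at 207 CPM young and 532 old (log2 1.36, interval 1.09 to 1.65). It was similar in cells with γδ receptor chains (172 CPM young and 413 old) and in cells without *Cd4* or *Cd8* UMIs (209 CPM young and 469 old), and small in cells with *Cd8* (321 CPM young and 356 old). The cells without *Cd4* or *Cd8* made up 1624 of 4082 T-like cells in the old library, and some of them are cells whose *Cd4* or *Cd8* transcripts were not captured. *Itgb7* in the T-like subsets was highest in cells with *Foxp3*, the transcription factor of regulatory T cells, at 369.8 CPM young and 497 old, and in the old library lowest in cells with *Cd8* (173 CPM) and in cells without either (180.4 CPM).

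Outside T-like and ILC2-like cells, α4 and β7 were widely shared among leukocytes. *Itga4* was at 265 CPM young and 391 old in NK or ILC1-like cells (log2 0.56, interval 0.33 to 0.79). It was at 280.3 CPM young and 202 old in B-like cells and at 371 CPM young and 454 old in macrophage or monocyte-like cells. Neutrophil-like cells had 303 CPM young and 269.6 old and plasmacytoid dendritic-like cells 372 CPM young and 325 old. ILC2-like cells of the young library had the highest *Itga4* level of the young classes, followed by plasmacytoid dendritic-like and macrophage or monocyte-like cells, whose intervals overlapped it. In the old library the highest value was in macrophage or monocyte-like cells at 454 (437 to 472), followed by T-like cells at 442 (433 to 450.5) and ILC2-like cells at 411 (381 to 443), and the intervals of all 3 overlapped. The *Itgb7* level was highest in conventional dendritic-like cells (334 CPM young and 376 old), a class of 61 young and 15 old cells. It was 193 CPM young and 275 old in plasmacytoid dendritic-like cells, 238 CPM young and 215 old in NK or ILC1-like cells and 67.5 CPM young and 113 old in B-like cells, and neutrophil-like cells had 17.0 CPM young and 37.6 old. Within the macrophage or monocyte-like class both chains were lower in cells with C1q UMIs, which mark tissue macrophages. *Itgb7* was at 12.8 CPM young and 32.6 old with and 141 CPM young and 157 old without C1q. *Itga4* was at 102 CPM young and 133 old with and 454 CPM young and 534 old without.

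**Figure D3:**
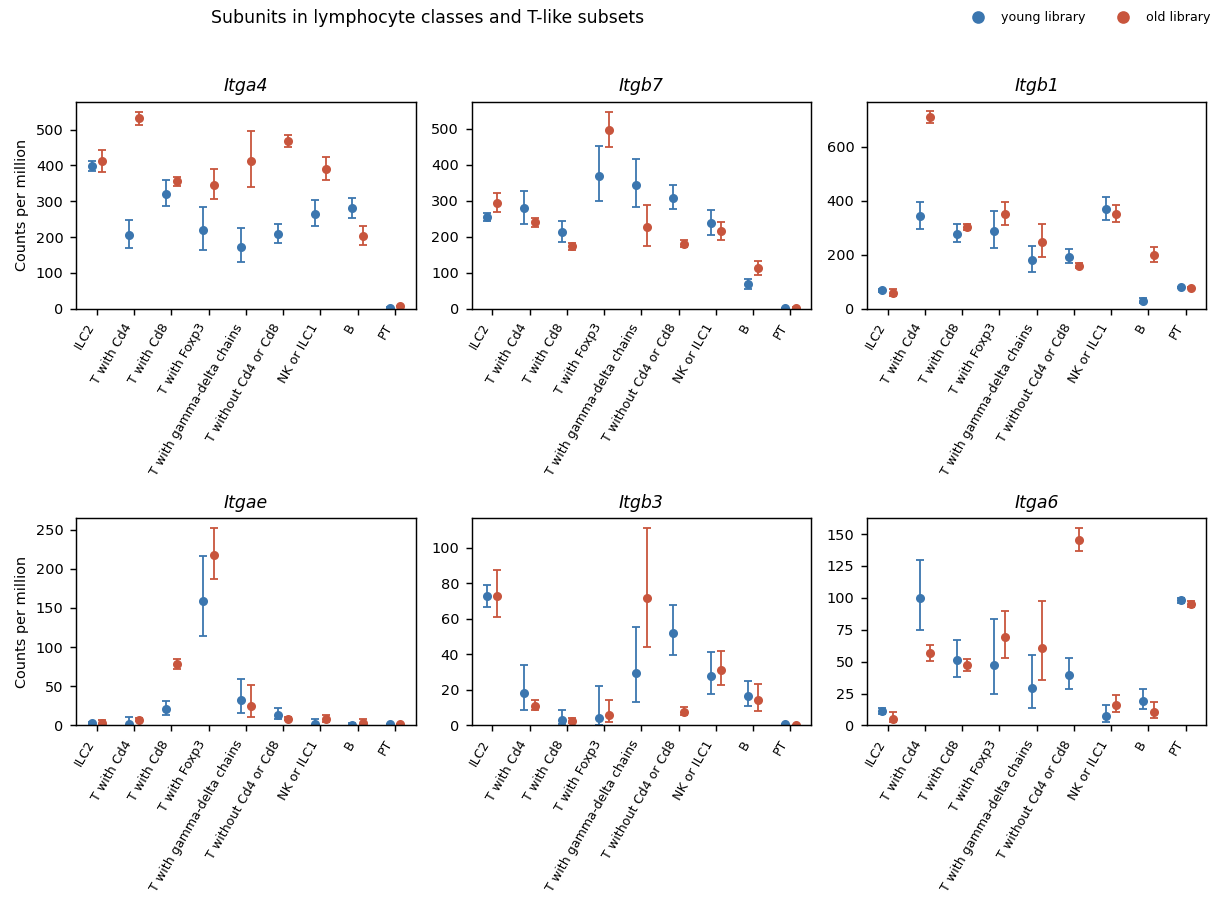
CPM of 6 subunits in ILC2-like cells, T-like subsets, NK or ILC1-like and B-like cells, with PT-like cells at the right of each panel; points are the young (blue) and old (red) library and bars are exact Poisson 95% intervals. *Itga4* stood at about the same level in ILC2-like cells of both libraries and was higher in the old library in the T-like subsets, with overlapping or nearly overlapping intervals in the cells with *Cd8*.

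Detection of both chains in the same cell was counted next, since a heterodimer needs both. Thinning drew 1000 UMIs from each cell and left out shallower cells, 26 young and 8 old in the ILC2-like, 7 and 75 in the T-like, 8 and 3 in the B-like and 6 and 6 in the macrophage or monocyte-like class. Among ILC2-like cells, 46.1% in the young library and 53.8% in the old had UMIs of both *Itga4* and *Itgb7*. After thinning the shares were 5.98% and 6.45%. In T-like cells the shares were 31.7% and 38.3%, and 4.87% and 5.52% after thinning, lower than in ILC2-like cells of the same library each time. After thinning the gaps were small, and whether they exceed counting error was not tested. In PT-like cells 1.06% and 1.7% held both. *Itgb7* was found in 67.1% of young ILC2-like cells that had an *Itga4* UMI and in 61.1% of those that had none, a small difference between cells with and without the α chain. The β1 partner was less often detected beside *Itga4* in ILC2-like cells, at 21.03% young and 19.2% old, than in macrophage or monocyte-like cells (57.4% and 79.0%, in cells of higher depth). The share of cells with *Itga4* and *Itgb1* in the *Cd4* subset was 21.6% young and 62.6% old, or 2.94% and 16.7% after thinning.

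**Figure D4:**
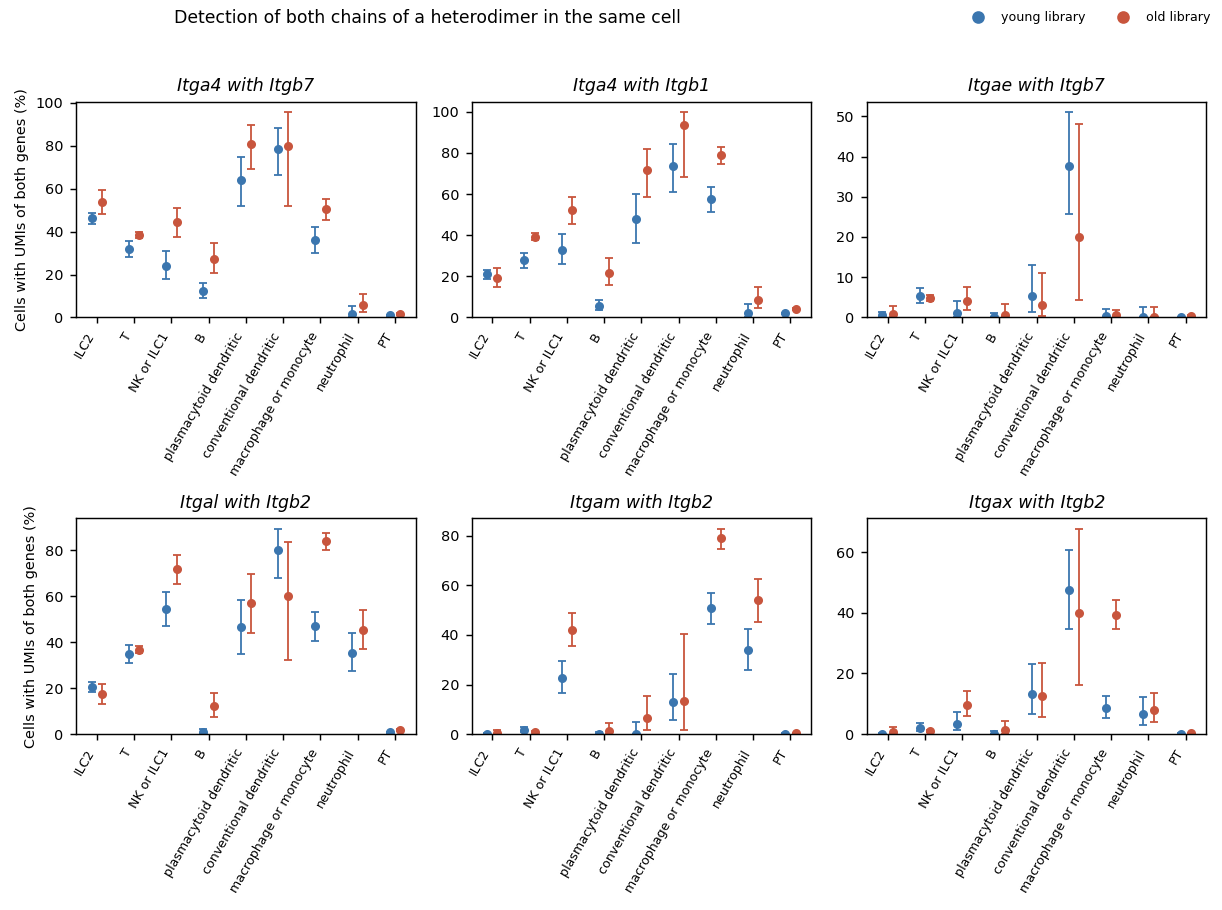
Share of cells with UMIs of both chains of 6 heterodimers in 9 classes, as counted and not thinned, in the young (blue) and old (red) library; bars are exact Clopper-Pearson 95% intervals. Shares in PT-like cells stayed at or below 4.04%, and shares also depend on the depth of the cells in a class.

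The αE chain, which pairs with β7 alone and binds E-cadherin, was near background in ILC2-like cells (2.53 CPM young and 2.97 old, beside 2.11 CPM young and 1.21 old in PT-like cells). It was concentrated in T-like cells with *Foxp3* (159 CPM young and 217 old) and in conventional dendritic-like cells. In dendritic-like cells *Itgae* was at 90.3 CPM (72.2 to 112) in the young library and 26.9 (11.6 to 52.9) in the old, a log2 ratio of -1.75 (-3.01 to -0.71) that rests on 8 UMIs in 15 old cells and was -0.58 as a mean of each cell's CPM. In T-like cells with *Cd8* it differed the other way, at 20.6 CPM (12.8 to 31.6) in the young library and 78.5 (72.5 to 84.9) in the old (log2 1.93, interval 1.30 to 2.63). Within Y-linked *Cd8* cells that log2 ratio was 0.72 (-0.01 to 1.53), and within *Xist* cells 2.93 (1.06 to 5.98), with 17 young cells in the latter.

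The β1 chain, the common partner of collagen, laminin and fibronectin receptors, had its highest level in endothelial-like cells (735 CPM young and 727 old) and, among lymphocytes, in NK or ILC1-like and T-like cells. In T-like cells *Itgb1* was at 253 CPM (236 to 271) in the young library and 379 (371 to 387) in the old, a log2 ratio of 0.58 (0.48 to 0.69). The libraries were farther apart in the subset with *Cd4*, at 343 CPM (296 to 396) in the young library and 710.0 (689 to 731) in the old (log2 1.05, interval 0.84 to 1.27), whereas cells without *Cd4* or *Cd8* were at 193 CPM young and 159 old. In ILC2-like cells the level was low, at 68.7 CPM young and 58.8 old. In B-like cells *Itgb1* was at 28.5 CPM (20.5 to 38.7) in the young library and 200.3 (175 to 228) in the old, a log2 ratio of 2.81 (2.33 to 3.33), the farthest from 0 of any subunit counted in a lymphocyte class with over 5 UMIs in each library. The 10 cells with most *Itgb1* held 52.7% of its UMIs in the 166 old B-like cells, and the share of B-like cells with a UMI after thinning was 2.27% young and 12.3% old. The summed level of the macrophage marker list was also higher in old B-like cells, at 68.9 CPM young and 945 CPM old, with 6 of 10 and 7 of 10 markers detected and *Mrc1* and *Ms4a7* at 0 in both. That of the T cell list was 31.3 and 211 CPM, with 7 of 10 and 10 of 10 markers detected. The part of these in the result was not tested. The other members past the fold in B-like cells were *Itgal* (25.7 CPM young and 59.4 old, log2 1.21, interval 0.61 to 1.83), *Itgb2* (27.8 CPM young and 68.2 old, log2 1.29, interval 0.73 to 1.88) and *Icam1* (20.2 CPM young and 59.4 old, log2 1.56, interval 0.91 to 2.24), all 3 at low levels.

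The α partners of β1 divided the classes. *Itga1*, a collagen receptor chain that also marks resident lymphocytes, was highest in endothelial-like cells (309 CPM young and 202 old) and present in PT-like (45.6 CPM young and 37.3 old) and other epithelial-like cells (85.0 CPM young and 117 old). Among lymphocytes it was highest in T-like cells with γδ chains (101 CPM young and 115 old) and with *Cd8* (79.6 CPM young and 146 old, log2 0.87, interval 0.54 to 1.21). It was lower in cells without *Cd4* or *Cd8* (41.2 CPM young and 12.5 old, log2 -1.72, interval -2.26 to -1.17) and close to 0 in ILC2-like cells (2.93 CPM young and 1.19 old). The gene *Pelo* lies inside *Itga1* on the same strand, so reads in shared exons could be lost or split. *Itga2*, which encodes the α2 chain known as CD49b on NK cells, was highest in NK or ILC1-like cells (84.9 CPM young and 133 old) and in the 21 young basophil or mast-like cells (87.8 CPM). In T-like cells it was at 6.8 CPM young and 3.38 old (log2 -1.01, interval -1.71 to -0.26). *Itga5*, the α chain of the classical fibronectin receptor, was found in endothelial-like cells (98.1 CPM young and 72.7 old) , macrophage or monocyte-like (22.9 CPM young and 35.9 old) and neutrophil-like cells (22.6 CPM young and 13.1 old) and stood at or below 5.55 CPM in lymphocyte classes. *Itga3*, of a laminin receptor, was at 38.0 CPM young and 80.8 old in endothelial-like cells (log2 1.09, interval -0.04 to 2.07, from 10 UMIs in the 18 old cells) and at 29.6 CPM young and 20.2 old in other epithelial-like cells.

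*Itga6*, the other laminin receptor chain, was highest in other epithelial-like cells (188 CPM young and 306 old) and at almost equal levels in PT-like cells of both ages (98.1 CPM young and 95.3 old). Its partner *Itgb4* was confined to other epithelial-like cells at any level over 10 CPM (32.3 CPM young and 21.5 old). In leukocytes *Itga6* differed in both directions. T-like cells without *Cd4* or *Cd8* had 39.3 CPM (28.5 to 53.0) in the young library and 145 (137 to 155) in the old (log2 1.89, interval 1.45 to 2.36). Macrophage or monocyte-like cells had 21.4 CPM (15.5 to 28.9) in the young library and 3.16 (1.9 to 4.93) in the old (log2 -2.76, interval -3.62 to -1.95). Those with C1q held 37 of the 43 young UMIs, at 78.8 CPM young and 5.85 old. Those without C1q were at 3.90 CPM young and 2.49 old (log2 -0.65, interval -2.17 to 1.05), from 6 and 12 UMIs. ILC2-like cells had 11.2 CPM (8.93 to 13.9) in the young library and 5.34 (2.44 to 10.1) in the old (log2 -1.07, interval -2.25 to -0.07, 9 UMIs in the old library), the only counted member past the fold in that class. *Itgb6* and *Itgb8*, also expressed in PT-like cells, had too few UMIs to be counted there. *Itgb6* was at 6.40 CPM young and 0 old (48 and 0 UMIs), and *Itgb8* at 4.27 CPM young and 1.19 old (32 and 2 UMIs). The part of RNA from PT-like cells in the *Itga6* ratio of ILC2-like cells was not tested. The *Itga6* ratio in macrophage or monocyte-like cells was -1.94 (-3.14 to -0.79) within Y-linked and -5.28 (-8.43 to -3.22) within *Xist* cells. *Itga9*, which binds VCAM-1 and other ligands, belonged to endothelial-like cells (85.5 CPM young and 145 old) and to macrophage or monocyte-like cells with C1q, at 179 CPM (143 to 221) in the young library and 57.6 (44.8 to 72.9) in the old (log2 -1.63, interval -2.12 to -1.16). In the whole macrophage or monocyte-like class it was at 48.3 CPM young and 15.8 old (log2 -1.61, interval -2.04 to -1.19), and in T-like cells at 1.24 CPM young and 2.56 old (log2 1.05, interval -0.39 to 2.97), where the young value rests on 4 UMIs. *Itga7*, *Itga8*, *Itga10* and *Itga11* were at or below 20.2 CPM in every class. That maximum was *Itga8* in the 21 young basophil or mast-like cells.

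The β2 chain and its partners marked the myeloid and NK or ILC1-like classes. *Itgb2* was at 312 CPM (288 to 337) in the young library and 571 (553 to 591) in the old in macrophage or monocyte-like cells (log2 0.87, interval 0.75 to 0.998). It was at 452 CPM young and 575 old in NK or ILC1-like cells, at 371 CPM young and 366 old in neutrophil-like cells and at 206 CPM young and 212 old in T-like cells. *Itgal*, the αL chain of LFA-1, was at 246 CPM (225 to 269) in the young library and 471 (454 to 489) in the old in macrophage or monocyte-like cells (log2 0.94, interval 0.80 to 1.08) and at 393 CPM young and 361 old in neutrophil-like cells. It was at 190.2 CPM young and 198 old in T-like and 131 CPM young and 119.9 old in ILC2-like cells, so these lymphocytes differed little between the ages. *Itgam*, the αM chain of Mac-1, was at 399 CPM young and 405 old in neutrophil-like cells, 227 CPM young and 253 old in macrophage or monocyte-like cells and 104 CPM young and 151 old in NK or ILC1-like cells, with 0 UMIs in 1398 young ILC2-like cells. *Itgax*, the αX chain known as CD11c, was at 32.9 CPM (25.4 to 41.9) in the young library and 88.8 (81.4 to 96.7) in the old in macrophage or monocyte-like cells (log2 1.43, interval 1.06 to 1.82). With C1q it was at 85.2 CPM young and 213 old and without C1q at 16.9 CPM young and 57.9 old. The log2 ratio in cells with C1q was 0.73 (0.08 to 1.43) within Y-linked and 4.14 (2.25 to 7.20) within *Xist* cells. The 10 richest of the 55 old cells with C1q held 69.4% of the UMIs, and after thinning the share with an *Itgax* UMI was lower in the old library, at 9.76% young and 7.55% old. In NK or ILC1-like cells it was at 13.2 CPM (6.56 to 23.5) in the young library and 45.8 (35.4 to 58.2) in the old (log2 1.80, interval 0.87 to 2.87), the only member past the fold in that class. The 10 richest of the 221 old cells held 69.7% of its UMIs, and the share with a UMI after thinning was 1.73% young and 2.33% old. The log2 ratio was 2.39 (1.05 to 4.09) within Y-linked and 1.203 (-0.81 to 4.33) within *Xist* cells, from fewer than 50 UMIs each. Macrophage or monocyte-like cells of the old library were deeper, with medians of 7162 and 12298 UMIs. In them the share with an *Itgax* UMI after thinning to 1000 UMIs was 4.4% young and 6.45% old, and that with *Itgb2* was 27.6% and 47.6%.

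*Itgad*, which encodes the αD partner of β2, was weak everywhere, and most of its UMIs in the old library lay in T-like cells without *Cd4* or *Cd8*. T-like cells without *Cd4* or *Cd8* had 0 UMIs among 230 young cells, which allows up to 2.74 CPM, and 113 UMIs in 79 of 1624 old cells, or 16.2 (13.3 to 19.4) CPM. The old level was at least 5.89-fold higher than the level that 3 UMIs in the young cells would give. No cell held more than 4 of these UMIs, and the 10 richest cells held 24.8%, so they were spread over many cells. Old cells with γδ chains had a like level, 17.9 (5.83 to 41.9) CPM from 5 UMIs in 41 cells, and young ones had 3.25 (0.0824 to 18.1) CPM from 1 UMI. Levels were lower in old cells with *Cd4* (0.65 (0.177 to 1.66) CPM) and with *Cd8* (0.991 (0.428 to 1.95) CPM). In the whole T-like class the log2 ratio was 4.19 (1.68 to 9.50), from 1 young and 130 old UMIs. Plasmacytoid dendritic-like cells had 3 and 5 UMIs of it.

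The αv chain and its β partners separated lymphocytes, macrophages and epithelium. *Itgav* was broadly detected, at 70.7 CPM young and 83.1 old in ILC2-like, 49.8 CPM young and 83.4 old in T-like and 43.8 CPM young and 40.7 old in PT-like cells, with the highest T-like level in cells with *Foxp3* (135 CPM young and 157 old). In other epithelial-like cells it was at 62.8 CPM (48.8 to 79.6) in the young library and 134 (123 to 145) in the old (log2 1.09, interval 0.73 to 1.48). *Itgb3*, the β3 chain, was highest among these classes in ILC2-like cells, at 72.5 CPM (66.6 to 78.9) in the young library and 73.0 (60.7 to 87.1) in the old, and did not differ beyond counting error (log2 0.01, interval -0.28 to 0.29). In T-like cells it was at 25.7 CPM (20.4 to 31.8) in the young library and 7.67 (6.58 to 8.88) in the old (log2 -1.74, interval -2.13 to -1.35). The subset without *Cd4* or *Cd8* was at 52.1 CPM young and 7.73 old (log2 -2.75, interval -3.32 to -2.19). In the γδ subset the values were 29.3 CPM young and 71.8 old, from 9 and 20 UMIs. In T-like cells the summed ILC2 marker list was also lower in the old library, at 1255 CPM young and 533 CPM old, with 12 of 12 markers detected in each, and its part in the result was not tested. The platelet partner of β3, *Itga2b*, had its highest level in young basophil or mast-like cells (122 CPM) and at most 8.08 CPM in any other class. *Itgb5* belonged to macrophage or monocyte-like cells with C1q (181 CPM young and 311 old, log2 0.78, interval 0.44 to 1.14), to other epithelial-like cells (66.5 CPM young and 82.3 old) and to endothelial-like cells (44.3 CPM young and 56.6 old). Without C1q it differed the other way (61.8 CPM young and 39.0 old, log2 -0.66, interval -1.03 to -0.29). The whole macrophage or monocyte-like class was level (log2 0.05, interval -0.19 to 0.30). *Itgb6* and *Itgb8*, whose heterodimers with αv activate TGF-β, were chains of the epithelium. *Itgb6* was at 88.9 CPM (87.2 to 90.6) in the young library and 52.9 (51.2 to 54.6) in the old in PT-like cells (log2 -0.75, interval -0.80 to -0.70) and 105 CPM young and 118 old in other epithelial-like cells, whereas *Itgb8* was nearly level in PT-like cells (87.4 CPM young and 89.5 old). The low *Itgb6* level of T-like cells (5.26 CPM young and 1.43 old, log2 -1.88, interval -2.76 to -0.94) stood beside a summed PT marker list of 782 CPM young and 337 CPM old in that class, with 14 of 14 markers detected in each, and its part in the result was not tested. *Itgb8* in lymphocytes was highest in T-like cells with *Foxp3* (35.8 CPM young and 54.7 old).

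Of the 7 ligands, *Vcam1*, a counter-receptor of α4 integrins, had the largest ratio between the libraries in each of the 4 classes in which it was counted. In PT-like cells it was at 0.813 CPM (0.66 to 0.992) in the young library and 14.9 (14.004 to 15.8) in the old, a log2 ratio of 4.19 (3.89 to 4.51), from 97 and 1057 UMIs. The UMIs came from few cells: 72 of 7147 young and 169 of 3937 old PT-like cells had one, or 1.01% and 4.29%, and the 10 richest old cells held 47.4% of them. PT-like cells with a UMI of *Havcr1*, the tubular injury marker KIM-1, had 0.371 CPM (0.0765 to 1.08) in the young library and 70.4 (62.9 to 78.6) in the old (log2 7.57, interval 6.01 to 9.85). That ratio rests on 3 UMIs in 3 young cells and 319 UMIs in 21 old cells. PT-like cells without *Havcr1* had 0.846 CPM (0.683 to 1.03) in the young library and 11.1 (10.3 to 11.9) in the old (log2 3.71, interval 3.40 to 4.04). The cells with *Havcr1* were the deeper ones in both libraries, at medians of 35105 and 25128 UMIs. Of the old PT-like cells with *Vcam1*, 12.4% had a *Havcr1* UMI and 45.0% an *Icam1* UMI, against 4.01% and 25.1% of those without *Vcam1*, at median depths of 18997 and 14946 UMIs. *Cdh5* was at 0 in the 169 old PT-like cells with *Vcam1*, *Pecam1* was found in 1.18% of them and in 1.38% of those without *Vcam1*, and *Ptprc*, a pan-leukocyte gene, in 4.73% and 9.16%. *C1qa* was found in 1.18% and 0.318%. The part of other cell types in the *Vcam1* result was not tested. Within Y-linked PT-like cells the log2 ratio was 4.22 (3.79 to 4.68), and within *Xist* cells 3.102 (2.53 to 3.72).

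*Vcam1* was also higher in the old library outside PT-like cells. In endothelial-like cells it was at 22.8 CPM (16.0 to 31.6) in the young library and 436 (328 to 569) in the old (log2 4.26, interval 3.62 to 4.91). The old value rests on 54 UMIs in 7 of 18 cells. In macrophage or monocyte-like cells it was at 15.5 CPM young and 67.4 old (log2 2.12, interval 1.60 to 2.70). Within Y-linked and *Xist* cells the log2 ratio was 1.45 (0.84 to 2.12) and 5.61 (3.12 to 10.92). Cells with C1q held most of it, at 53.2 CPM (34.5 to 78.6) in the young library and 293 (263 to 325) in the old, and had a *Vcam1* UMI after thinning in 7.32% of young and 20.8% of old cells. In other epithelial-like cells *Vcam1* was at 2.77 CPM young and 66.3 old (log2 4.58, interval 3.02 to 6.87), but 1 old cell held 229 of the 296 UMIs. The young value rests on 3 UMIs in 2 cells. Without the richest cell of each library the log2 ratio was 4.03, but the young cell removed held 2 of those 3 UMIs. That value thus does not show what the 1 old cell alone contributed. In lymphocytes *Vcam1* was at or near 0: 0 UMIs in young and 1 in old ILC2-like cells, and 0.928 CPM young and 1.47 old in T-like cells.

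*Icam1*, which encodes the counter-receptor of β2 integrins, was expressed in nearly every class. In PT-like cells it was at 11.8 CPM (11.2 to 12.5) in the young library and 29.2 (27.9 to 30.5) in the old (log2 1.30, interval 1.204 to 1.40), in 1022 young and 1022 old cells, or 14.3% and 25.96%. The 10 richest old cells held 8.93% of the UMIs, a smaller share than for *Vcam1*. With *Havcr1* the level was 7.05 CPM young and 65.6 old (log2 3.22, interval 2.80 to 3.65). Other epithelial-like cells had 16.6 CPM young and 46.4 old (log2 1.48, interval 0.78 to 2.26), macrophage or monocyte-like cells 72.3 CPM young and 124 old (log2 0.78, interval 0.53 to 1.05) and ILC2-like cells 39.1 CPM young and 59.97 old (log2 0.62, interval 0.28 to 0.95). The other epithelial-like class differed in makeup between the libraries. Its *Icam1* ratio rests on 18 young UMIs, and the 10 richest old cells held 53.1% of the old ones. The ILC2-like value was not shared by both kinds of cell, with log2 ratios of -0.06 (-0.58 to 0.43) within Y-linked and 1.62 (1.03 to 2.20) within *Xist* cells. In endothelial-like cells it was at 210.2 CPM young and 202 old (log2 -0.06, interval -0.71 to 0.53), and the log2 ratio was 0.88 as a mean of each cell's CPM, so its sign depended on the summary. T-like cells had 64.0 CPM young and 52.4 old. *Icam1* lies at chr9:21015985-21028817 on the forward strand (GENCODE, mm10) and *Vcam1* at chr3:116109949-116129688 on the reverse strand. The RefSeq promoter window of *Icam1* (chr9:21015690-21015939, GRCm38.p6, the 250 bases before the RefSeq start, which lies upstream of the GENCODE start, forward strand) is shown because *Icam1* was higher in both epithelial classes of the old library, and NF-κB is known to act on this gene. Capitals mark a match to the κB-like motif GGAANTTCC, 153 to 145 bases before the RefSeq start.
Icam1 promoter: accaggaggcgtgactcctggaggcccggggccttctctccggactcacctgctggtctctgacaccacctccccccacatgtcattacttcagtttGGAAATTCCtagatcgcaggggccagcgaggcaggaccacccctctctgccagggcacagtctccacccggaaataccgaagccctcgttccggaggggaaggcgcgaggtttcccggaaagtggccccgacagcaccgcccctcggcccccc
The motif was searched on both strands, reads the same on both, and was found in 0.813% of 32851 RefSeq windows of that length. Of the 21 members with a window, *Icam1* was the 1 that held it, and the match describes the letters of this window only. *Vcam1* had no window and was not searched.

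**Figure D5:**
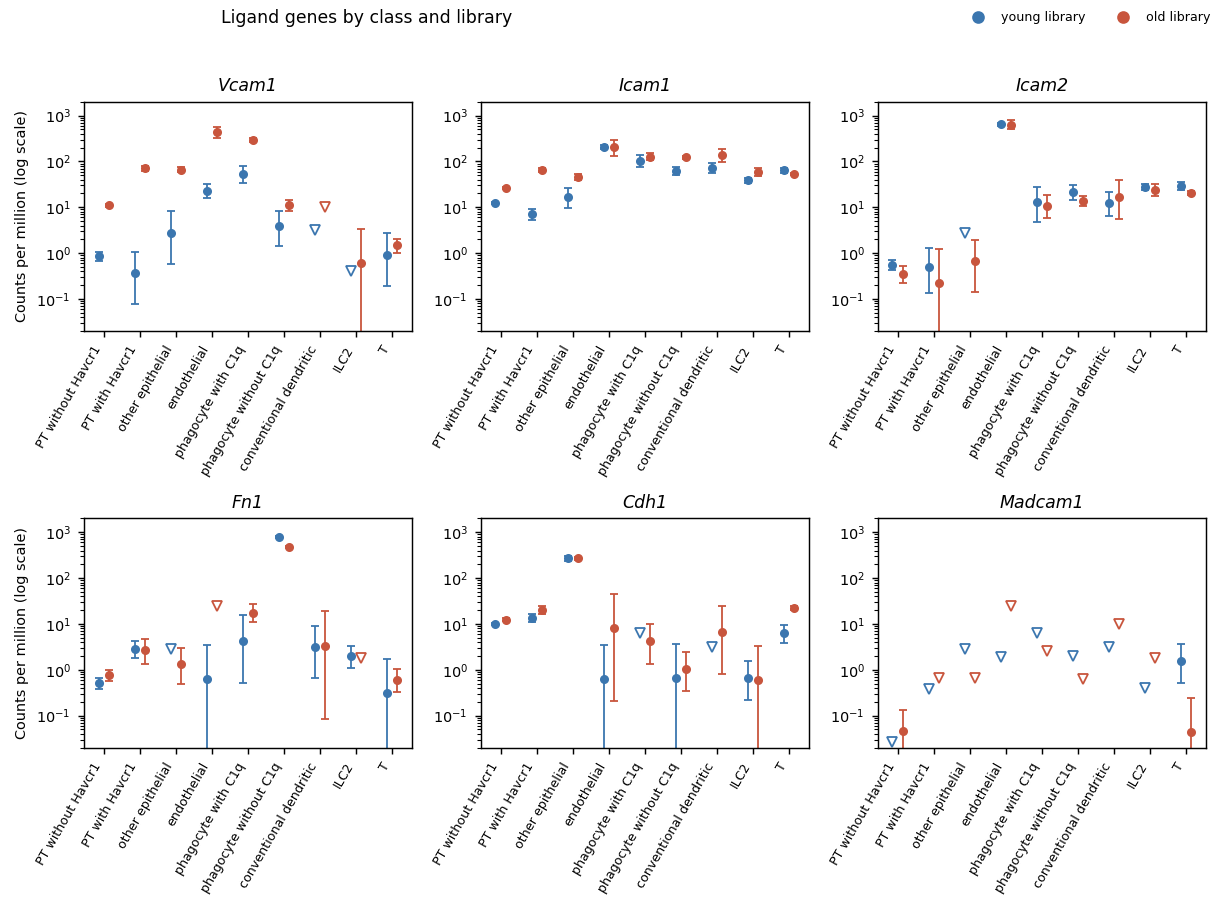
CPM of 6 ligand genes (log scale) in PT-like cells with and without *Havcr1*, other epithelial-like, endothelial-like, macrophage or monocyte-like (phagocyte) with and without C1q, conventional dendritic-like, ILC2-like and T-like cells. Points are the young (blue) and old (red) library, bars are exact Poisson 95% intervals, some of which run below the axis, and open triangles mark the level that 3 UMIs would give where a gene had none. *Vcam1* was higher in the old library in both PT-like subsets and in endothelial-like cells, whereas *Icam2* and *Cdh1* were level in their main classes.

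The other ligands were high in few classes each. *Icam2*, an LFA-1 ligand of resting endothelium, was at 645 CPM (606 to 686) in the young library and 638 (505 to 796) in the old in endothelial-like cells and at or below 48.7 CPM elsewhere. *Fn1*, which encodes fibronectin, was found in macrophage or monocyte-like cells, at 603 CPM (569.6 to 638) in the young library and 379.9 (364 to 396) in the old (log2 -0.67, interval -0.77 to -0.57). Nearly all of it was in cells without C1q (786 CPM young and 470.0 old) and little in cells with C1q (4.26 CPM young and 17.5 old). PT-like cells had 0.671 CPM young and 0.873 old, endothelial-like cells had 1 and 0 UMIs, and no class other than the macrophage or monocyte-like was above 40.5 CPM. Stromal cells, a known source of fibronectin, numbered 3 young and 1 old and were not described. *Cdh1* was level in other epithelial-like cells (268 CPM young and 268 old), low in PT-like cells (10.2 CPM young and 12.99 old) and present in plasmacytoid dendritic-like cells (47.6 CPM young and 51.2 old) and in the young basophil or mast-like cells (162 CPM from 24 UMIs). In T-like cells *Cdh1* was at 6.19 CPM young and 22.4 old (log2 1.86, interval 1.22 to 2.58). Its UMIs lay mainly in cells with *Cd8*, at 10.8 CPM (5.4 to 19.3) in the young library and 46.3 (41.7 to 51.3) in the old (log2 2.10, interval 1.24 to 3.11), beside 3.66 CPM young and 4.58 old in cells without *Cd4* or *Cd8*. Of old cells with *Cd8*, 20.1% had a *Cdh1* UMI, and the summed list of other epithelial markers in T-like cells was 44.8 CPM young and 126 CPM old, with 8 of 14 and 12 of 14 markers detected. Its part in the *Cdh1* result was not tested. *Madcam1*, the mucosal addressin, had no UMI in endothelial-like cells of either library, which allows up to 1.9 CPM young and 24.2 CPM old. *Vtn* had 2 UMIs in the young library and none in the old.

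Leukocyte subunits past the fold in PT-like cells stood at low levels, which are background here by definition. *Itga4* was at 3.41 CPM young and 6.89 old (log2 1.01, interval 0.82 to 1.21), *Itgb2* at 1.6 CPM young and 4.24 old (log2 1.40, interval 1.14 to 1.67) and *Itgam* at 0.193 CPM young and 0.676 old (log2 1.81, interval 1.06 to 2.59). *Itgb3* was at 0.537 CPM young and 0.254 old (log2 -1.08, interval -1.92 to -0.31). The summed T cell marker list in PT-like cells was 28.4 CPM young and 118 CPM old, with 10 of 10 markers detected in each. These levels in PT-like cells are the background against which leukocytes were read, and the part of free RNA or doublets in the ratios was not tested. Together with *Vcam1* and *Icam1* they make up the 6 members past the fold in that class.

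Genes around the integrins were counted from 2 lists. Of 24 genes of integrin activation and linkage (talins, kindlins, paxillin, Rap1 and others), none was past the fold in ILC2-like, T-like, NK or ILC1-like, macrophage or monocyte-like or other epithelial-like cells, where 20, 20, 17, 19 and 19 were counted. *Rasgrp2*, a Rap1 activator, was lower in old B-like cells (379.8 CPM young and 183 old, log2 -1.05, interval -1.29 to -0.82), 1 of 16 counted there, beside 4.78% of all genes. *Parvb* was lower in PT-like cells (1.29 CPM young and 0.254 old, log2 -2.35, interval -3.14 to -1.64), 1 of 24 beside 3.31% of all genes. *Sharpin* was higher in endothelial-like cells (31.7 CPM young and 72.7 old, log2 1.1998, interval -0.01 to 2.24), 1 of 18 beside 3.85%. Of 22 other integrin ligands, 1 to 5 were past the fold in each of the 8 classes for which shares over all genes are given above. Most were too weak to count in NK or ILC1-like (20), B-like (18), ILC2-like (17), T-like (17) and macrophage or monocyte-like cells (16). In NK or ILC1-like cells 1 was higher (1.26% of all genes) and 1 within the fold. B-like cells had 1 lower (4.78%) and 3 within, and ILC2-like cells 1 lower (4.13%) and 4 within. T-like cells had 1 higher (6.34%), 1 lower (5.24%) and 3 within. Macrophage or monocyte-like cells had 2 higher (4.26%), 2 lower (3.59%) and 2 within. Conventional dendritic-like, plasmacytoid dendritic-like and neutrophil-like cells were left out of these counts. *Spp1*, osteopontin and a ligand of α4 and αv integrins, was higher in the old library in macrophage or monocyte-like cells (32.4 CPM young and 164 old, log2 2.34, interval 1.98 to 2.72). So it was in T-like (16.7 CPM young and 59.3 old, log2 1.83, interval 1.43 to 2.25) and NK or ILC1-like cells (59.8 CPM young and 205 old, log2 1.78, interval 1.34 to 2.24). *C3*, whose fragment binds Mac-1, was higher in PT-like (5.2 CPM young and 14.6 old, log2 1.49, interval 1.35 to 1.64) and macrophage or monocyte-like cells (176 CPM young and 394 old, log2 1.16). In other epithelial-like cells *C3* (0.924 CPM young and 28.2 old, log2 4.93, interval 2.43 to 10.25) and *Thbs1*, thrombospondin, (29.6 CPM young and 61.4 old, log2 1.05, interval 0.52 to 1.63) were higher, 2 of 14 counted, beside 4.46% of all genes. The basement membrane collagens *Col4a1* and *Col4a2* were both lower in old PT-like cells. *Col4a1* had 88.7 CPM young and 41.0 old, log2 -1.11, interval -1.17 to -1.05, and *Col4a2* had 56.1 CPM young and 26.8 old, log2 -1.06, interval -1.14 to -0.99. *Nid1*, nidogen, was lower there too (0.377 CPM young and 0.127 old, log2 -1.57, interval -2.79 to -0.52), as was *Ctgf* (1.94 CPM young and 0.916 old, log2 -1.08, interval -1.50 to -0.68). *Npnt*, nephronectin and an α8β1 ligand, was lower in ILC2-like (65.1 CPM young and 19.6 old, log2 -1.73, interval -2.29 to -1.22) and T-like cells (11.1 CPM young and 3.29 old, log2 -1.76, interval -2.35 to -1.14). The summed ILC2 marker list was also lower in old T-like cells, as given above, and its part in the *Npnt* result there was not tested. In PT-like cells 1 of 17 counted ligands was thus higher (4.95% of all genes) and 4 were lower (3.31%). In endothelial-like cells 5 of 14 were lower, beside 10.7% of all genes. They were *Lamc1*, a laminin chain (296 CPM young and 96.97 old, log2 -1.61, interval -2.57 to -0.79), *Cyr61* (156 CPM young and 40.4 old, log2 -1.95, interval -3.58 to -0.70) and *Ctgf* (97.5 CPM young and 40.4 old, log2 -1.27, interval -2.91 to -0.02). The others were *Spp1* (38.0 CPM young and 8.08 old, log2 -2.23, interval -7.56 to 0.30) and the laminin chain *Lamb1*, which had 94 UMIs in young and 0 in the 18 old cells. *Cyr61*, a matricellular ligand, was also lower in macrophage or monocyte-like (32.9 CPM young and 7.82 old, log2 -2.07, interval -2.64 to -1.51) and B-like cells (34.8 CPM young and 14.2 old, log2 -1.29, interval -2.21 to -0.46). *Thbs1* was lower in macrophage or monocyte-like cells (488 CPM young and 234 old, log2 -1.06, interval -1.18 to -0.94).

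Within cells of 1 sex-linked type, the directions of the main ratios were compared once more. For *Itga4* in ILC2-like cells the log2 ratio was 0.12 (-0.04 to 0.27) within Y-linked and -0.25 (-0.54 to 0.04) within *Xist* cells, so its sign differed and both intervals included 0. For *Itgb7* in ILC2-like cells it was 0.22 (0.02 to 0.41) and 0.21 (-0.06 to 0.48). In T-like cells *Itga4* had 0.78 (0.64 to 0.92) and 1.14 (0.89 to 1.41), and *Itgb7* -0.44 (-0.59 to -0.30) and -0.68 (-0.89 to -0.47). *Itgb1* had 0.72 (0.57 to 0.86) and 0.55 (0.32 to 0.80) there, and *Itgb3* -1.69 (-2.24 to -1.14) and -1.68 (-2.47 to -0.80). *Icam1* in PT-like cells had 1.43 (1.31 to 1.55) and 1.02 (0.77 to 1.27), and *Itgb1* in B-like cells 3.07 (2.35 to 3.87) and 2.82 (1.90 to 3.88). *Itgad* in T-like cells without *Cd4* or *Cd8* had no UMI in young cells of either type. In the old library it had 18 UMIs in 391 Y-linked and 79 in 840 *Xist* cells.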

How the data were processed

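Single-cell libraries of kidney leukocytes from MRL-*lpr* mice were used, 1 per age group. The authors aligned reads to mm10 with Cell Ranger (version 3) and deposited raw UMI counts per gene and barcode, which were used as deposited. A barcode was kept if it had 200 or more genes and no more than 20% mitochondrial UMIs. The 33 members and all lists were chosen with earlier results of these data known.

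Each cell was gated to the class with the highest marker score (the mean of its 4 highest scaled markers). It needed a score of at least 0.4, at least 3 markers detected and a runner-up at no more than 0.75 of that score. This rule, and the subsets by *Havcr1*, C1q and T cell genes, were set after the data were seen. Doublets were called with Scrublet in scanpy 1.11.5 (328 young and 246 old cells) and kept.

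Counts were summed per class and library and given as CPM with exact Poisson intervals, shares with exact Clopper-Pearson intervals, and log2 ratios of old over young with exact binomial intervals. Ratios were called at 2-fold among genes with at least 50 UMIs over both libraries. Where no UMI was seen, a limit of 3 counts was used. UMIs were 145647185 in kept young and 119218130 in kept old cells, and intervals hold counting error only. Since no replicate exists, no test was run and no p-value was computed. Named genes were the 33 members and the genes of the 2 lists past the fold. The calculation was tested on simulated data. Alternatives were doublet removal, stricter filters, a stricter gate, another CPM total, means over cells, cells of 1 sex-linked type, a minimum of 20 UMIs, other thinning depths and, chosen after seeing the data, removal of the richest cell. Python 3.11.15, numpy 2.4.6, scipy 1.17.1 and pandas 2.3.3 were used, with RefSeq promoter windows and GENCODE positions on GRCm38. Protein motifs were not searched.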

Additional observations from a re-analysis of the deposited data

Results flagged for a closer look

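For 3 subunits the old over young ratio pointed in opposite directions in 2 groups of cells, each past 2-fold. With 1 library per age these differences between groups were not tested. *Itga6* had a log2 ratio of 1.89 (1.45 to 2.36) in T-like cells without *Cd4* or *Cd8* and of -2.76 (-3.62 to -1.95) in macrophage or monocyte-like cells. In that class cells with C1q held 37 of its 43 young UMIs. *Itgb3* had 1.04 (0.12 to 2.11) in macrophage or monocyte-like cells without C1q and -2.75 (-3.32 to -2.19) in T-like cells without *Cd4* or *Cd8*. The former rests on 11 young and 71 old UMIs, at 7.16 and 14.7 CPM, and could not be computed within *Xist* cells. In the whole macrophage or monocyte-like class the *Itgb3* log2 ratio was 0.88 (0.04 to 1.81), within the fold. *Itgae* had 1.93 (1.30 to 2.63) in T-like cells with *Cd8* and -1.75 (-3.01 to -0.71) in conventional dendritic-like cells, a class of 61 young and 15 old cells.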

How the results depend on the processing

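No paired analysis was possible because each age had 1 library. Of 700 values of 81 log2 ratios under the alternatives, 627 lay within the interval of the value in the report, 67 lay outside it with the same sign and 6 had the other sign. A further 31 values, 2 of them counts of members, could not be computed for lack of cells or UMIs. Most of those within came from settings that moved little: within *Xist* cells 26 ratios lay within, 32 outside and 4 on the other side of 0, and within Y-linked cells 54, 20 and 1. Other filters, the stricter gate and another CPM total left every ratio they could give within its interval. Restriction to *Xist* cells gave -0.25 for *Itga4* in ILC2-like cells (0.05 in all cells), 3.102 for *Vcam1* in PT-like cells, -0.86 for *Itgam* in macrophage or monocyte-like cells with C1q, -0.37 for *Itgb3* in ILC2-like cells and -0.087 for *Itga4* in T-like cells with *Cd8*. Restriction to Y-linked cells gave 0.72 for *Itgb1* in T-like cells (0.58 in all cells) and -0.059 for *Icam1* in ILC2-like cells. As a mean of each cell's CPM, *Itgb1* in T-like cells was at 0.45 and *Icam1* in endothelial-like cells at 0.88, against -0.06 from summed counts. The number of members past the fold went from 1 to 0 in ILC2-like cells by the mean over cells and within Y-linked cells, and to 5 with a minimum of 20 UMIs. It went from 6 to 2 in T-like cells within Y-linked cells. In B-like cells it went from 4 to 1 within *Xist* cells, where *Itgal*, *Itgb2* and *Icam1* had fewer than 50 UMIs. In NK or ILC1-like cells it went from 1 to 0 within either kind of cell, where *Itgax* had fewer than 50 UMIs, and to 2 with a minimum of 20 UMIs. That minimum also gave 5 in place of 3 in other epithelial-like cells, and the mean over cells gave 1 in place of 2 in endothelial-like cells. The cause of these shifts was not tested. Shares of cells with a UMI depended on the thinning depth: for *Itga4* in young and old ILC2-like cells they were 16.5% and 13.8% at 500 UMIs, 46.9% and 46.0% at 2000 UMIs and 68.7% and 69.8% with no thinning. Depth limits statements on weak genes and on the 18 old endothelial-like and 15 old conventional dendritic-like cells.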

Other observations

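Plasma-like cells, a class of 87 cells in the old library and 7 in the young (6 of them called doublets), belong in no comparison of the ages. In the old library they had 59.0 (50.9 to 68.1) CPM of *Itga4*, 52.5 (44.9 to 61.1) of *Itgb1*, 43.8 (36.9 to 51.7) of *Itgb7*, 53.1 (45.5 to 61.7) of *Itgb2* and 55.6 (47.8 to 64.4) of *Itgal*, at a median depth of 37520.0 UMIs. The 21 basophil or mast-like cells of the young library had 122 (72.0 to 192) CPM of *Itga2b*, 709 (579.7 to 858) of *Itgb1*, 284 (204 to 383) of *Itgb7* and 162 (104 to 241) of *Cdh1*, and with 12 cells in the old library they were not compared.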
